A study of Mus musculus with 21 samples.

Results

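The genes described here encode the energy sensors AMPK and mTORC1 and the proteins that act directly on them. They are Prkaa1, Prkaa2, Prkab1, Prkab2, Prkag1, Prkag2, Stk11, Mtor, Rptor and Rheb, chosen by symbol, and all 10 were found among the 21000 symbols of the count table. They were measured by RNA sequencing of bone marrow hematopoietic stem cells (HSCs, sorted as Lineage-Sca-1+c-Kit+ cells with CD150 and without CD48) in 21 libraries, 3 in each of 7 groups, and each library was made from 3000 to 3500 sorted cells of wild-type mice. Mice that were 10 weeks old were given intraperitoneal PBS or 5-fluorouracil (5-FU, an antimetabolite that kills cycling blood cells and brings HSCs into cycle) at 150 mg/kg, either once or 3 times at 21-day intervals. With the last administration counted as day 1, PBS-treated HSCs were taken at day 6 and 5-FU-treated HSCs at day 6 or day 21. Mice given 3 administrations were thus older at collection than those given 1, so age and number of administrations cannot be told apart. The remaining group held untreated HSCs of mice aged 2 years, named old HSCs here. There was no PBS group at day 21, so HSCs of day 21 were set against PBS-treated HSCs of day 6, and for these comparisons the day cannot be told apart from the treatment. HSCs collected at day 6 after 5-FU were sorted with a gate widened to cells with dim c-Kit and without the Mac-1 antibody, so gate and treatment cannot be told apart at day 6. The paper states that the gate was widened at no other time, so between day 21 and day 6 gate and day cannot be told apart.

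AMPK is a heterotrimeric kinase that becomes active when AMP or ADP rises against ATP. Its alpha subunit is catalytic (Prkaa1 or Prkaa2), its beta subunit is a scaffold that binds glycogen (Prkab1 or Prkab2), and its gamma subunit binds adenine nucleotides (Prkag1 or Prkag2). LKB1, encoded by Stk11, phosphorylates the alpha subunit and is required for HSC maintenance in adult mice. mTORC1 promotes protein synthesis and growth when nutrients are plentiful: Mtor encodes its kinase, Rptor its substrate-recruiting subunit Raptor, and Rheb the small GTPase that switches it on. AMPK restrains mTORC1 by phosphorylating Raptor and the TSC2 protein. All of these steps are set by phosphorylation or nucleotide binding, which mRNA levels do not measure.

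Levels are given as CPM, counts per 1000000 counts of a library, scaled by the trimmed mean of M values (TMM). Library totals ranged from 22184885 to 38649033 counts with a median of 26962256, and 20 of the 21 libraries were nearest to a library of their own group. The exception was replicate 2 of 5-FU once at day 21, which was nearest to a library of 5-FU 3 times at day 21. None of the 11 listed HSC markers was at 0 throughout a group. The summed HSC markers stood between 3470 and 3641 CPM at day 6 after 5-FU once against 4268 to 4759 CPM in the PBS group, and the 10 erythroid markers between 112.6 and 123.7 CPM against 49.4 to 60.3 CPM. The globin genes Hbb-bt (mean 48.6 against 7.45 CPM) and Hbb-bs (43.2 against 5.93 CPM) made up that rise, whereas Klf1 (0.407 against 3.34 CPM) and Hemgn (8.58 against 19.7 CPM) were lower. Of 7 erythroid markers tested, 2 passed as higher and 2 as lower, with a median log2 difference of -0.07. The summed 12 myeloid markers were lower there, between 67.7 and 81.1 CPM against 102.9 to 128.7 CPM, and so was the sum of the 8 megakaryocyte markers, with 108.8 to 115.1 CPM against 181.1 to 221.5 CPM. With 5-FU given 3 times, the day 6 sums were 3039 to 3121 CPM against 4166 to 4483 CPM for HSC markers, 65.6 to 78.4 CPM against 47.3 to 64.2 CPM for erythroid markers and 60.1 to 83.9 CPM against 95.5 to 128.0 CPM for myeloid markers. The lymphoid markers Cd3e, Cd8a and Rag1 were at 0 in every library of the PBS groups and of both 5-FU groups at day 6. The 11 counted lymphoid markers together summed to 45.3 to 47.1 CPM at day 6 after 5-FU once against 53.1 to 58.0 CPM after PBS once. After 5-FU 3 times the day 6 lymphoid sum was 50.3 to 54.2 CPM against 63.5 to 71.2 CPM after PBS 3 times. These marker shifts moved with the day 6 differences reported below, and their part in them was not tested. In such bulk samples, fewer cells of a type and less RNA per cell cannot be told apart.

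Within each of the alpha, beta and gamma pairs of AMPK, 1 of the listed genes was more abundant than the other. In PBS-treated HSCs given PBS once, the level per kilobase of longest annotated transcript was 54.7 ± 3.40 CPM per kb for Prkag2 (SD, n = 3), 31.1 ± 2.80 CPM per kb for Stk11 and 14.8 ± 0.307 CPM per kb for Prkaa1. Prkag2, Stk11 and Prkaa1 held the top places, in this order, among the 10 genes in all 7 groups. Prkag1 (13.2 CPM per kb), Prkab1 (9.43 CPM per kb), Rptor (8.83 CPM per kb), Rheb (5.38 CPM per kb) and Mtor (4.11 CPM per kb) followed in the same PBS group. Prkaa2 (1.89 CPM per kb) and Prkab2 (1.33 CPM per kb) were the lowest, and they filled the last places in every group. The order depended on the length used, also for the top and last places. With coding length in place of transcript length, Rheb rose to the fourth place and Mtor was the lowest of the 10 in that PBS group. By coding length Mtor stood at place 9 or 10 in every group. Stk11 then stood above Prkag2 after 5-FU 3 times, with 119.0 against 117.0 CPM per kb at day 6 and 103.1 against 99.9 CPM per kb at day 21. Prkag1 shares 43.7% of its exonic bases with the opposite-strand gene B130046B21Rik, Prkag2 shares 14.5% with Prkag2os1 and Prkag2os2, and Stk11 shares 5.07% with Cbarp. The library kit does not mark strand, so reads of these overlaps cannot be told apart.

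**Figure D1:**
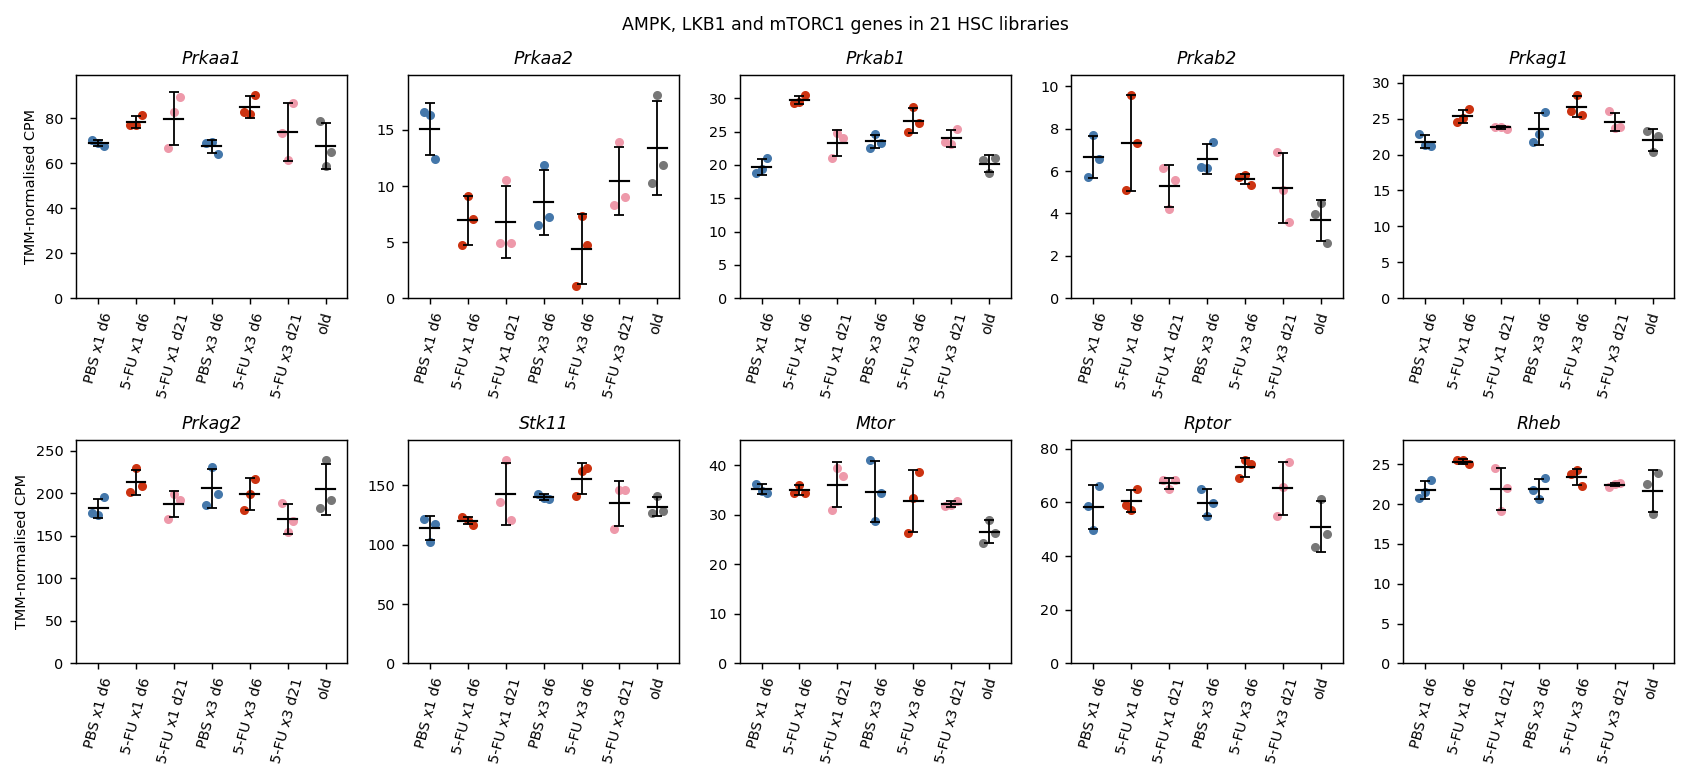
TMM-normalised CPM of the 10 genes (each panel from 0) in each library of the 7 groups, where x1 and x3 mark 1 and 3 administrations and d6 and d21 the day. Points are libraries, long bars are means and whiskers are SD (n = 3). Prkaa2 spans the widest range as a fold, from 1.08 to 18.1 CPM, and Prkab1 peaks in 5-FU x1 d6.

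Prkaa1 and Prkaa2, which encode alternative catalytic subunits, differed in abundance and in how they moved. In mm10, Prkaa1 lies at chr15:5143861-5181899 on the plus strand, with a longest transcript of 4655 bases. Prkaa2 lies at chr4:105029874-105109890 on the minus strand, with a longest transcript of 7969 bases. Their upstream sequences (RefSeq, GRCm38.p6) are shown because this paralog pair gave differences of opposite sign. The stretch of Prkaa1 is chr15:5143611-5143860 on the plus strand and that of Prkaa2 is chr4:105109899-105110148 on the minus strand, each read 5′ to 3′ up to the base before the RefSeq start, with capitals marking GC boxes (GGGCGG or, on the other strand, CCGCCC).
Prkaa1: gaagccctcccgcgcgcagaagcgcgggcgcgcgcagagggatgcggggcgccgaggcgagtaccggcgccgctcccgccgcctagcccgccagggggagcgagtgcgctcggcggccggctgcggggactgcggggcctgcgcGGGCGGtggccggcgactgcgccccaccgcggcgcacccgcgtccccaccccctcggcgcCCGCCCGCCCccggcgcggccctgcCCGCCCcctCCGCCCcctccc
Prkaa2: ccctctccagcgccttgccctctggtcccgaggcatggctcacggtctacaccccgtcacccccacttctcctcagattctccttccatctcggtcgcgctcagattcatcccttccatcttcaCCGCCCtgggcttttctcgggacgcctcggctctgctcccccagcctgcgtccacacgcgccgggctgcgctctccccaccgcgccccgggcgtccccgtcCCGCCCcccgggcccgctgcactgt
The Prkaa1 stretch held 5 GC box matches, of which a pair overlap by their ends, and was 85.2% G and C, and the Prkaa2 stretch held 2 matches and was 70.0% G and C. A GC box was found in 32.7% of all 32841 mouse windows of 250 bases, and the median of these windows was 52.4% G and C. Neither stretch held a CCAAT box (CCAAT), an E-box (CACGTG) or a TATA box (TATAAA) on either strand. Of all windows, 33.9% held the first of these, 6.0% the E-box and 12.4% the TATA box. These matches describe letters and not binding.

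Prkaa2, the catalytic subunit gene best known from muscle, had the widest range of the 10 genes, 3.46-fold between the highest and the lowest group mean. In HSCs given PBS once it was measured at 16.6, 16.3 and 12.4 CPM, and at day 6 after 5-FU once at 4.71, 9.11 and 7.04 CPM. The groups did not overlap, and every 5-FU library was below every PBS library. The fitted difference fell by 1.12 on the log2 scale (SE 0.244, 95% interval -1.70 to -0.55, edgeR adjusted p = 0.0188), which is 0.459 times the PBS level. The call was lost without replicate 3 of the 5-FU group (adjusted p = 0.0537), without replicate 1 (adjusted p = 0.0540) or replicate 2 of the PBS group (adjusted p = 0.0584), and in a single edgeR fit of all 21 libraries (adjusted p = 0.106).

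The later and repeated treatments left Prkaa2 with wider spread. At day 21 after 5-FU once, Prkaa2 stood at 4.88, 10.5 and 4.93 CPM, all below the PBS once libraries, with a log2 difference of -1.15 (SE 0.318, edgeR adjusted p = 0.188). DESeq2 called this difference (adjusted p = 0.0356), and so did edgeR without replicate 2 of the day 21 group (adjusted p = 0.0429). After PBS 3 times it was measured at 6.50, 11.9 and 7.25 CPM, all below PBS once as well, with a log2 difference of -0.82 between these control groups (SE 0.249, edgeR adjusted p = 0.258). After 5-FU 3 times, at day 6, Prkaa2 stood at 1.08, 7.32 and 4.70 CPM, and the lowest of these came from 35 counts. These libraries overlapped those of PBS 3 times, with a log2 difference of -0.99 whose 95% interval ran from -2.42 to 0.43 (edgeR adjusted p = 0.304). At day 21 after 5-FU 3 times the values were 8.30, 13.9 and 9.06 CPM, and in old HSCs 10.3, 18.1 and 11.8 CPM. Both groups overlapped PBS 3 times. Ordered by mean, Prkaa2 ran from PBS once (15.1 CPM) through old, 5-FU 3 times day 21, PBS 3 times, 5-FU once day 6 and 5-FU once day 21 to 5-FU 3 times day 6 (4.37 CPM), and the libraries of every neighbouring pair overlapped.

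Prkaa1, the prevailing catalytic subunit gene, was measured at 70.4, 68.9 and 67.5 CPM after PBS once and at 76.8, 76.7 and 81.4 CPM at day 6 after 5-FU once. The groups did not overlap, and the log2 difference of 0.18 (SE 0.066, edgeR adjusted p = 0.0965) did not pass the test. After PBS 3 times Prkaa1 stood at 68.8, 69.4 and 63.9 CPM, and at day 6 after 5-FU 3 times at 82.5, 81.8 and 90.3 CPM. All 3 of these 5-FU libraries were above all 3 PBS libraries, and Prkaa1 rose by 0.31 on the log2 scale (SE 0.082, 95% interval 0.12 to 0.51, edgeR adjusted p = 0.0401). This call was lost without any 1 of the 6 libraries (adjusted p from 0.0701 to 0.113) in the fit of all 21 libraries (adjusted p = 0.0634) and with the replicate number as a block (adjusted p = 0.108). At day 21 and in old HSCs the spread was wider, from 66.6 to 89.6 CPM after 5-FU once, from 61.5 to 86.8 CPM after 5-FU 3 times and from 58.7 to 78.7 CPM in old HSCs. No neighbours in the order of Prkaa1 means were free of overlap, and the highest and lowest group means were 1.26-fold apart.

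Prkab1, which encodes a scaffold subunit, was the gene with the firmest difference. It lies at chr5:116013586-116024508 on the minus strand of mm10. After PBS once it was measured at 18.8, 19.3 and 21.0 CPM, and at day 6 after 5-FU once at 29.3, 29.4 and 30.5 CPM. The 5-FU libraries were close together and all above the PBS libraries. Prkab1 rose by 0.59 on the log2 scale (SE 0.081, 95% interval 0.40 to 0.78, edgeR adjusted p = 0.00433), and it remained past the threshold in all 11 alternatives (adjusted p from 1.18e-06 to 0.0181). At day 21 after 5-FU once Prkab1 stood at 21.0, 24.7 and 24.0 CPM, below all libraries of day 6. It fell by 0.34 on the log2 scale between day 6 and day 21 (SE 0.094, edgeR adjusted p = 0.0341). Leaving out single libraries ended this second call in 5 of 6 cases, namely each replicate of day 6 and replicates 1 and 3 of day 21, with adjusted p up to 0.102, and so did a replicate block (adjusted p = 0.0544).

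After repeated treatment the difference of Prkab1 was smaller. PBS 3 times gave 22.6, 24.6 and 23.3 CPM and 5-FU 3 times at day 6 gave 24.9, 28.7 and 26.3 CPM. All 3 values of the 5-FU group were above those of the PBS group, the closest pair being 24.9 and 24.6 CPM, and the log2 difference of 0.16 (SE 0.088, 95% interval -0.05 to 0.37, edgeR adjusted p = 0.262) did not pass the test. The effect of 5-FU given 3 times minus that of 5-FU given once was -0.41 on the log2 scale (SE 0.109, edgeR interaction adjusted p = 0.0998), which edgeR did not call and DESeq2 did (adjusted p = 0.0132). The control groups enter this value: PBS 3 times stood above PBS once without overlap, with a log2 difference of 0.26 (SE 0.0865, edgeR adjusted p = 0.291). At day 21 after 5-FU 3 times, Prkab1 was at 23.5, 23.1 and 25.4 CPM, and in old HSCs at 20.8, 18.7 and 21.1 CPM. The old libraries were below all libraries of PBS 3 times without passing the test (log2 difference -0.23, edgeR adjusted p = 0.444). Over the 7 groups Prkab1 differed by edgeR's test (F = 12.9, adjusted p = 0.000182), and 5-FU once at day 6 was the only group whose libraries stood clear of its neighbour in the order of means.

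Prkab2, the other scaffold gene, was low throughout. It ranged from 2.60 to 9.59 CPM over the 21 libraries, which were 71 to 259 counts. In old HSCs the libraries stood at 3.96, 4.47 and 2.60 CPM, against 5.71, 7.69 and 6.55 CPM after PBS once and 6.17, 6.14 and 7.36 CPM after PBS 3 times. The old libraries were below all 6 PBS libraries. The log2 differences were -0.86 against PBS once (SE 0.276, edgeR adjusted p = 0.204) and -0.84 against PBS 3 times (SE 0.273, edgeR adjusted p = 0.275), and neither passed the test. At day 6 after 5-FU once, Prkab2 spanned 5.09 to 9.59 CPM and overlapped its PBS group (log2 difference 0.13, 95% interval -0.46 to 0.73). After 5-FU 3 times, at day 6, it was at 5.72, 5.83 and 5.36 CPM, below all libraries of PBS 3 times (log2 difference -0.24, edgeR adjusted p = 0.382).

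The gamma subunit genes moved little. Prkag1 was at 22.9, 21.3 and 21.2 CPM after PBS once and at 24.6, 25.04 and 26.3 CPM at day 6 after 5-FU once, with no overlap, and the log2 difference of 0.21 (SE 0.079, edgeR adjusted p = 0.102) did not pass the test. Prkag2, in which mutations cause cardiac glycogen storage, was at 176.8, 174.7 and 195.3 CPM and at 201.1, 229.0 and 208.0 CPM in the same groups. These libraries did not overlap either (log2 difference 0.21, SE 0.079, edgeR adjusted p = 0.0937). After repeated treatment the libraries of 5-FU at day 6 and PBS overlapped for both genes, with log2 differences of 0.16 for Prkag1 (edgeR adjusted p = 0.308) and -0.07 for Prkag2 (edgeR adjusted p = 0.699). At day 21 after 5-FU 3 times, Prkag2 had its lowest mean, 169.6 ± 17.2 CPM, against 205.5 ± 23.1 CPM after PBS 3 times, an overlapping difference of -0.28 on the log2 scale (edgeR adjusted p = 0.343).

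Stk11, the LKB1 gene, had its smallest edgeR p-value between the control groups. It was at 121.5, 102.2 and 117.8 CPM after PBS once and at 142.8, 139.6 and 138.4 CPM after PBS 3 times, with no overlap. The log2 difference of 0.30 (SE 0.082, edgeR adjusted p = 0.229) was called by DESeq2 (adjusted p = 0.0197) and not by edgeR. At day 6 the 5-FU libraries overlapped those of their PBS groups. Stk11 was at 122.9, 120.6 and 116.8 CPM after 5-FU once (log2 difference 0.07, 95% interval -0.13 to 0.26) and at 140.6, 162.1 and 164.3 CPM after 5-FU 3 times (log2 difference 0.13, 95% interval -0.07 to 0.33).

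Mtor was lowest in old HSCs. Its libraries there stood at 24.4, 29.1 and 26.4 CPM against 36.3, 34.9 and 34.5 CPM after PBS once, and the groups did not overlap. The log2 difference of -0.40 (SE 0.0998, 95% interval -0.63 to -0.17, edgeR adjusted p = 0.104) did not pass edgeR's test, whereas DESeq2 called it (adjusted p = 0.0186). PBS 3 times gave 41.1, 28.7 and 34.4 CPM, of which the second was below the highest old library, and the log2 difference was -0.39 (edgeR adjusted p = 0.356). 5-FU gave no detectable change in Mtor at day 6: the log2 difference was -0.02 after 5-FU once (95% interval -0.18 to 0.14, libraries from 34.4 to 36.1 CPM) and -0.10 after 5-FU 3 times (95% interval -0.52 to 0.32, libraries from 26.3 to 38.8 CPM). In old HSCs the erythroid markers summed to between 81.2 and 187.4 CPM and the megakaryocyte markers to between 234.7 and 282.9 CPM, above both sums in PBS once. The megakaryocyte sum was raised mostly by Vwf (mean 110.2 against 58.2 CPM), while Itga2b (72.4 against 78.5 CPM) and Pf4 (11.9 against 11.7 CPM) were near the PBS level, and 1 of 7 tested passed as higher. These markers were measured beside the old HSC values, and their part in the lower Mtor and Prkab2 values was not tested.

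Rptor and Rheb differed in when they stood highest. Rptor was at 65.1, 55.0 and 59.6 CPM after PBS 3 times and at 69.1, 75.7 and 74.3 CPM at day 6 after 5-FU 3 times, with no overlap and a log2 difference of 0.26 (SE 0.091, edgeR adjusted p = 0.0883, DESeq2 adjusted p = 0.0353). After 5-FU once, at day 6, its log2 difference was 0.05 with overlapping libraries (95% interval -0.22 to 0.32). Rheb was highest at day 6 after 5-FU once, at 25.5, 25.5 and 24.99 CPM against 20.8, 21.5 and 23.0 CPM after PBS once, again without overlap (log2 difference 0.21, SE 0.079, edgeR adjusted p = 0.0949). After 5-FU 3 times the log2 difference of Rheb was 0.08 with overlapping libraries. In old HSCs Rptor had its lowest mean, 51.0 ± 9.39 CPM, which overlapped both PBS groups, and the fold between the highest and lowest group means was 1.43 for Rptor and 1.17 for Rheb.

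At day 6 after 5-FU once, 2 of the 10 genes passed edgeR's test at an adjusted p under 0.05, Prkab1 higher and Prkaa2 lower, beside 22.2% of all 12759 genes tested. Libraries did not overlap for 6 of the 10, 5 of them higher, where 24.0% of all genes were higher and 19.8% lower without overlap. The median log2 difference of the 10 genes was 0.15, with 8 above 0, and that of all genes was -0.0006. After 5-FU 3 times, 1 of 10 passed at day 6, Prkaa1, beside 18.1% of 12729 genes, and the median was 0.10 against -0.01 for all genes. Here 3 of the 10 were higher without overlap, beside 22.5% of all genes, and 1 was lower, beside 17.8%. The counts of called genes were thus near the background or below it. Between day 21 and day 6, 1 of 10 passed after 5-FU once (Prkab1, beside 26.0% of genes) and none after 5-FU 3 times, beside 19.5% of genes. After 5-FU 3 times none of the 10 reached an unadjusted p under 0.05 either, beside 34% of all genes, and DESeq2 called none, beside 27.4%. Libraries of day 21 stood below those of day 6 without overlap for 4 of the 10 after 5-FU once, beside 25.5% of all genes, and above for 0, beside 20.6%. They stood above for 1 after 5-FU 3 times, beside 19.2%, and below for 0, beside 21.8%.

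None of the 10 passed in the other comparisons of groups, where few of all genes were called. Against PBS once, day 21 after 5-FU once had 0.221% of all genes called, and 2 of the 10 at an unadjusted p under 0.05 (Prkaa2 and Prkab1), beside 13.3% of all genes at that p. DESeq2 called 1 of the 10 there, beside 5.73% of all genes. Day 21 after 5-FU 3 times against PBS 3 times had 0.0475% called and 1 of the 10 at that p (Prkag2), beside 13.7%, and DESeq2 called 0, beside 4.69%. PBS 3 times against PBS once had 0.0156% called and 3 of the 10 at that p (Prkaa2, Prkab1 and Stk11), beside 12.8%, and DESeq2 called 1, beside 4.27%. Old HSCs against PBS once had 1.88% called and 2 of the 10 at that p (Prkab2 and Mtor), beside 14.3%, and DESeq2 called 1, beside 6.41%. Against PBS 3 times, old HSCs had 0.996% called and 3 of the 10 at that p (Prkab1, Prkab2 and Mtor), beside 11.2%, and DESeq2 called 0, beside 4.43%.

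For the difference between the effects of repeated and single 5-FU at day 6, 0.650% of all genes were called by edgeR and 0 of the 10. At an unadjusted p under 0.05 there was 1 (Prkab1), beside 14.8% of all genes, and DESeq2 called 1, beside 5.41%. For day 21, 0 of 13182 genes were called, 1 of the 10 was at that p (Prkaa2, 1.43 on the log2 scale, edgeR adjusted p = 0.409), beside 9.66% of all genes, and DESeq2 called 0, beside 1.65%. Over all 7 groups edgeR called Prkab1 alone, beside 37.6% of 13571 genes, and between 1 and 4 of the 10 when a library was left out, 4 without replicate 1 of 5-FU 3 times day 21. The edgeR count was 3 without replicate 2 of 5-FU once day 21 or replicate 1 of 5-FU 3 times day 6, and 2 without replicate 3 of 5-FU once day 21, replicate 1 of 5-FU once day 6, replicate 2 of 5-FU 3 times day 6, replicate 2 of old HSCs or replicate 2 or 3 of PBS 3 times. DESeq2 called 6 of the 10, beside 49.4% of all genes.

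In the count table, the columns of PBS once and of 5-FU once at day 6 have names with an added ending, 6 in all, which is absent from the names of the remaining 15 and is explained nowhere in the sources used. The comparisons of 5-FU once at day 21, PBS 3 times and old HSCs with PBS once cross this divide, and so do day 21 against day 6 after 5-FU once and the test of the 7 groups. Both interactions cross it too: at day 6 all libraries of single administration carry the ending and no library of repeated administration does. In these the ending and the groups cannot be told apart. The comparisons of 5-FU with PBS at day 6, and those of old HSCs and of day 21 with PBS 3 times, do not cross it.

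**Figure D2:**
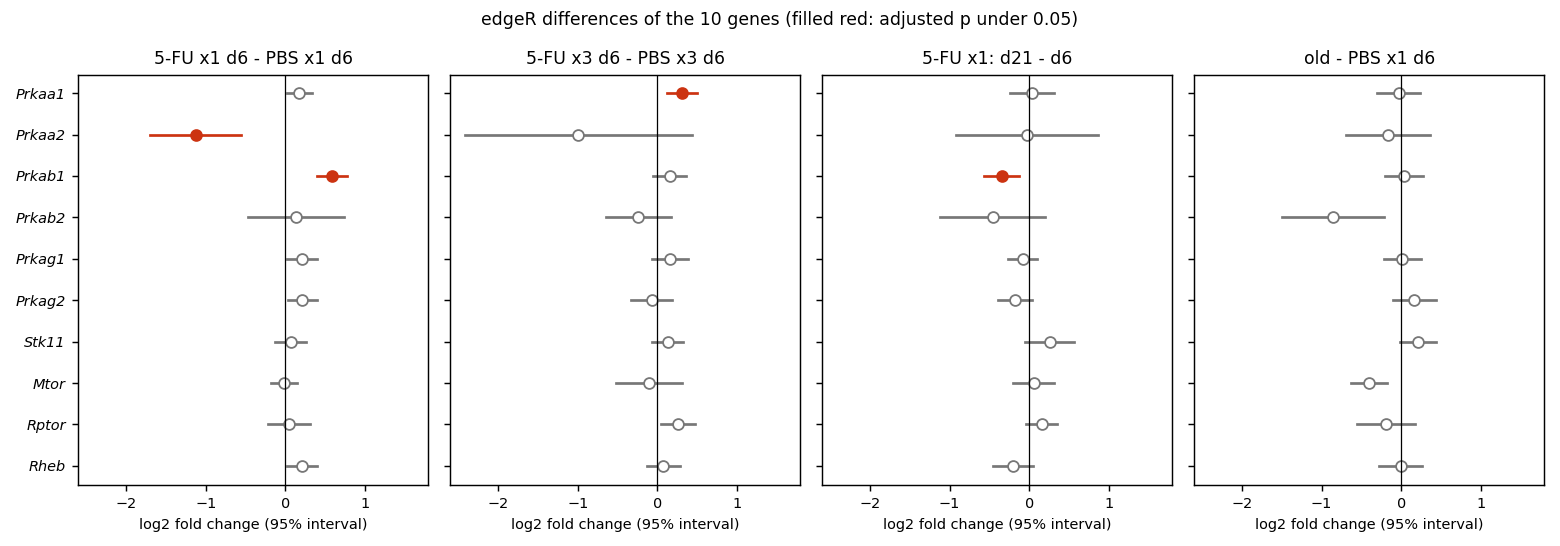
edgeR log2 fold changes of the 10 genes with 95% intervals in 4 comparisons. Red filled points passed an adjusted p of 0.05: Prkab1 and Prkaa2 in 5-FU x1 d6, Prkaa1 in 5-FU x3 d6, and Prkab1 between d21 and d6 after 5-FU x1. No interval is red for old HSCs.

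Shares within each subunit were computed from counts per kilobase of longest transcript. Prkaa1 made up 88.7 ± 1.40% of the alpha genes after PBS once (SD, n = 3), with 87.9, 87.9 and 90.3% in the libraries. At day 6 after 5-FU once its share was 96.5, 93.5 and 95.2%, above every PBS library and 6.40 percentage points higher on average. After 5-FU 3 times, at day 6, it was 99.2, 95.04 and 97.1% against 94.8, 90.9 and 93.8% after PBS 3 times, again without overlap and 3.95 points higher. The Prkaa1 share after PBS 3 times was also 4.47 points above that after PBS once without overlap. After 5-FU once, at day 21, it was 95.9, 93.1 and 96.9%, 6.61 points above PBS once without overlap. At day 21 after 5-FU 3 times it was 93.8, 88.3 and 94.3%, which is below all libraries of its day 6 group, a difference of -4.98 points. Each of these non-overlapping differences had a two-sided exact permutation p = 0.1, the smallest that 3 against 3 allows, and 0.27 after Benjamini-Hochberg adjustment over 27 comparisons.

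Prkab1 made up 87.7 ± 1.65% of the beta genes after PBS once and 90.7 ± 2.63% at day 6 after 5-FU once, and these libraries overlapped (exact permutation p = 0.3). Its share was highest in old HSCs, 92.6, 91.0 and 95.1%, above every library of PBS once and PBS 3 times (exact permutation p = 0.1 for each, the smallest possible). Prkag1 was the minor gamma gene, with 19.5 ± 1.39% after PBS once and 19.4 ± 1.18% at day 6 after 5-FU once. Over the 7 groups its mean share ranged from 18.1% in old HSCs to 22.6% at day 21 after 5-FU 3 times. In all, 10 of the 27 comparisons of shares had no overlap, and 5 of these concerned the alpha pair. The 27 comparisons share libraries, so these counts are not of independent events. Of all single genes, 24.0% were higher and 19.8% lower without overlap at day 6 after 5-FU once. At day 6 after 5-FU 3 times these shares were 22.5% and 17.8%, and between day 21 and day 6 each lay from 19.2% to 25.5%. For day 21 or old HSCs against PBS, and between the PBS groups, each lay from 8.44% to 11.1%. No such share was computed for other pairs of genes. The shares depend on the length used: from coding length, the values after PBS once were 81.9% for Prkaa1, 74.9% for Prkab1 and 17.1% for Prkag1.

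**Figure D3:**
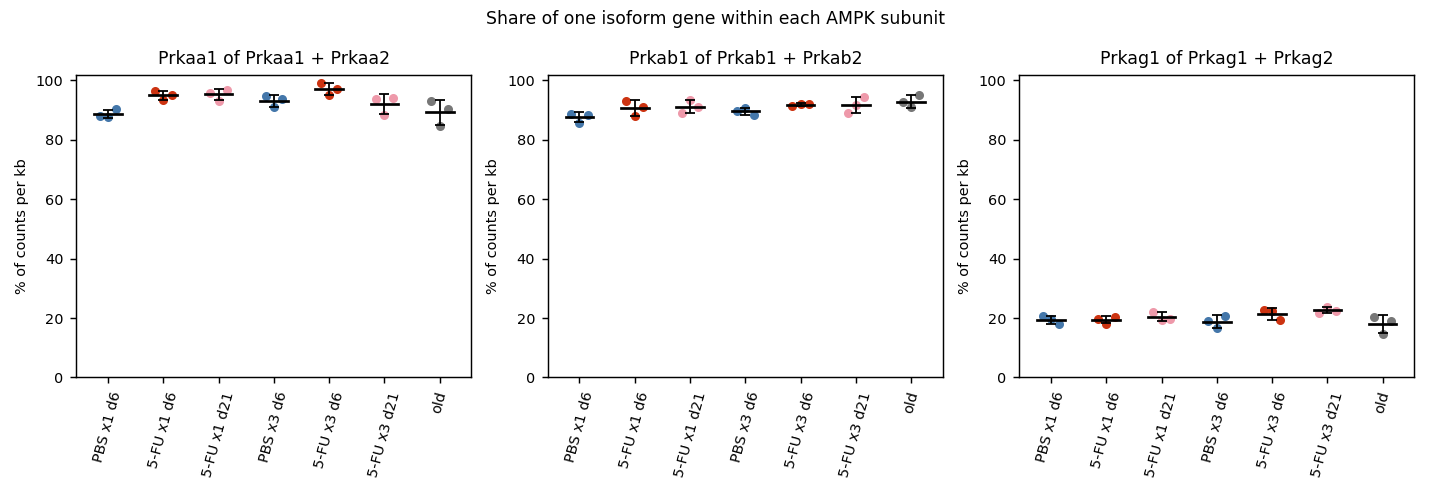
Share of counts per kilobase taken by Prkaa1, Prkab1 and Prkag1 within the alpha, beta and gamma pairs, in percent from 0, for each library. Points are libraries, long bars are means and whiskers are SD (n = 3). Prkaa1 and Prkab1 hold most of their pairs in all 7 groups, and Prkag1 the smaller share of its pair.

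The wider pathway was read from 8 lists of 85 genes, all of which are in the table. At day 6 after 5-FU once, 13 of 80 tested genes passed edgeR's test, 4 higher and 9 lower (median log2 difference of the lists 0.0033). At day 6 after 5-FU 3 times, 12 of 83 passed, 6 higher and 6 lower (median 0.0032). That second count fell to between 2 and 5 when any 1 of its 6 libraries was left out. Over all genes the calls of this comparison fell as well in these fits, from 2310 to between 1231 and 1582. The lists share the backgrounds of 22.2% and 18.1% given above and lie below both. Of the 19 called in either comparison, 6 passed in both and in the same direction.

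Among them, Ulk1, the autophagy kinase that AMPK activates and mTORC1 restrains, fell by 0.67 after 5-FU once and by 0.48 after 5-FU 3 times on the log2 scale. Its libraries were at 104.9, 91.7 and 89.8 CPM against 148.1, 162.2 and 141.2 CPM after PBS once, and at 104.6, 88.0 and 101.3 CPM against 131.9, 128.5 and 142.6 CPM after PBS 3 times (edgeR adjusted p = 0.00379 and 0.0170). Eif4e, the cap-binding translation factor released by mTORC1 signalling, rose by 0.45 and 0.52 (edgeR adjusted p = 0.00357 and 0.00530). Eef2k, the kinase that slows translation elongation and is inhibited downstream of mTORC1, fell by 0.60 and 0.34 (edgeR adjusted p = 0.00384 and 0.0235). Grb10, an adaptor that mTORC1 stabilises, rose by 0.54 and 0.36 (edgeR adjusted p = 0.00885 and 0.0414). Crtc2, a CREB coactivator held in the cytoplasm after phosphorylation by AMPK-family kinases, fell by 0.34 and 0.47 (edgeR adjusted p = 0.0145 and 0.0231). Flcn, encoding folliculin, fell by 0.27 and 0.28 (edgeR adjusted p = 0.0307 and 0.0496).

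As background for single lists, 11.5% of all genes were called higher and 10.6% lower after 5-FU once. After 5-FU 3 times these shares were 9.84% and 8.30%. By list, the AMPK substrates had 4 of 11 lower and none higher after 5-FU once, and 2 of 11 lower after 5-FU 3 times, with medians of -0.26 and -0.30. Pfkfb2, which encodes an isozyme of the enzyme that makes fructose 2,6-bisphosphate and is named here after its values were seen, was also among those that fell after 5-FU once (-0.90, edgeR adjusted p = 0.0185). The list of other AMPK kinases and regulators had 1 of 10 lower after 5-FU once and 2 of 10 higher and 3 lower after 5-FU 3 times. The genes of the latter, named likewise after their values were seen, were Camkk2 (0.38, edgeR adjusted p = 0.0371) and Map3k7 (0.51, edgeR adjusted p = 0.0341), both upstream kinases of AMPK, and Camkk1 (-0.69, edgeR adjusted p = 0.0234), Fnip1 (-0.81, edgeR adjusted p = 0.0236) and Flcn. Of the other mTOR complex subunits, 1 of 7 was higher in each comparison: Prr5l, an mTORC2-associated protein, after 5-FU once (1.05, edgeR adjusted p = 0.00351), and Mlst8, a subunit of both mTOR complexes, after 5-FU 3 times (0.49, edgeR adjusted p = 0.0286). Among mTORC1 substrates and effectors, 2 of 12 were higher and 3 lower after 5-FU once, and 2 higher and 1 lower after 5-FU 3 times. The AMPK-related kinases, the TSC complex and the Rag and Ragulator genes gave 0 edgeR calls in both comparisons. At an unadjusted p under 0.05 they gave 4 of 10, 3 of 5 and 3 of 9 after 5-FU once, beside 37.6% of all genes, and none after 5-FU 3 times, beside 32.9%. The amino acid sensing genes gave 1 higher and 1 lower after 5-FU once (Sesn1 and Castor2) and 1 higher after 5-FU 3 times (Seh1l).

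Between day 21 and day 6, 25 of 80 pathway genes passed after 5-FU once, 14 higher and 11 lower at day 21, beside 26.0% of all genes, and 16 of 82 after 5-FU 3 times, 9 higher and 7 lower, beside 19.5% of all genes. These comparisons share the day 6 libraries with those against PBS. The first count fell to 16 without any replicate of 5-FU once day 6, and the second to 9 without replicate 2 or replicate 3 of 5-FU 3 times day 6. Over all genes the calls fell as well in these fits. They went from 3272 to between 1736 and 1926 after 5-FU once, and from 2450 to 1674 and 1351 after 5-FU 3 times. Against PBS at day 6, day 21 gave 0 edgeR calls among the pathway genes after 5-FU once and 0 after 5-FU 3 times. At an unadjusted p under 0.05 there were 8 of 81 and 6 of 83, beside 13.3% and 13.7% of all genes, and DESeq2 called 2 in each, beside 5.73% and 4.69%. In old HSCs 1 of 83 passed against PBS once, beside 1.88% of all genes, namely Camkk1, an AMPK and CaMK kinase kinase, which rose by 1.05 on the log2 scale (SE 0.118, edgeR adjusted p = 0.00619). Camkk1 was at 70.2, 75.5 and 86.6 CPM in old HSCs, 39.04, 33.3 and 39.9 CPM after PBS once and 47.7, 67.6 and 69.6 CPM after PBS 3 times. A second gene was called without replicate 1 of PBS once, and against PBS 3 times edgeR called 0 of 82, with 8 at an unadjusted p under 0.05, beside 11.2% of all genes, and 3 by DESeq2, beside 4.43%.

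**Figure D4:**
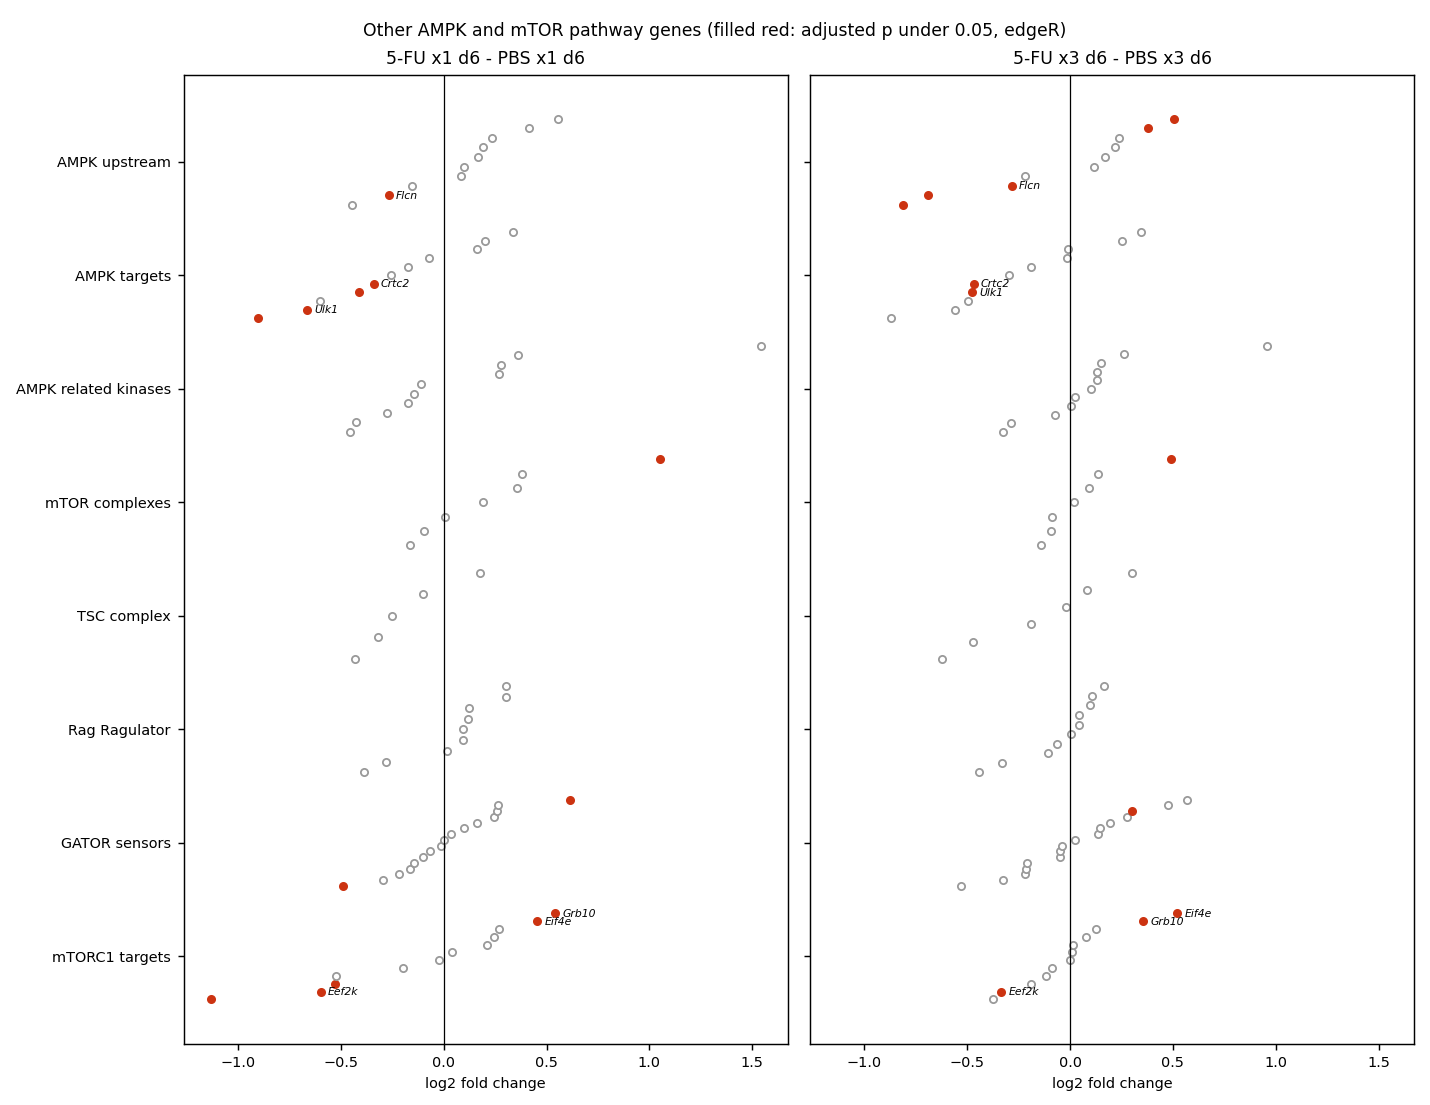
edgeR log2 fold changes at day 6 of the pathway genes tested, by list, after 5-FU x1 (80 genes) and 5-FU x3 (83 genes). Each point is a gene, spread vertically within its list, and red filled points passed an adjusted p of 0.05. Of the 6 genes red in both panels, which are named, Eif4e and Grb10 lie to the right of 0 and Ulk1, Eef2k, Crtc2 and Flcn to the left.

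The genes whose pattern over the 7 group means was most like that of 3 members were sought by the smallest root mean square difference of centred log2 values, among 9259 genes with a mean of at least 10 CPM. Prkaa2 was nearest to Abcg3 (0.255), Gbp8 (0.259) and Nav2 (0.272). Abcg3 was highest in old HSCs (28.8 ± 1.83 CPM), followed by PBS once (27.9 ± 2.53 CPM), and lowest at day 6 after 5-FU 3 times (11.9 ± 2.33 CPM), whereas Prkaa2 was highest after PBS once. Prkab2 was nearest to Cep170b (0.121), Ppm1m (0.143) and the deacetylase gene Sirt1 (0.146). Prkab1 was nearest to Pigw (0.0601), Ncoa7 (0.0644) and Pin4 (0.0668). Likeness was computed from group means and takes no account of the spread between libraries, which was wide for Pigw and Sirt1. The highest mean of Pigw was 17.9 ± 7.28 CPM (5-FU once, day 6) and its lowest 12.2 ± 3.67 CPM (PBS once). Sirt1 was at 19.0 ± 10.8 CPM at day 21 after 5-FU once. These are likenesses over 7 points that come from the same 21 libraries.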

How the data were processed

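RNA of sorted HSCs was amplified with SMART-Seq v4 and made into Nextera XT libraries for single-end sequencing. The authors aligned reads with TopHat 2.0.13 to mm10 with iGenomes annotation and quantified expression with Cuffdiff (Cufflinks 2.2.1). They deposited whole-number counts per gene symbol, not normalised; how these counts were made is not given in the sources used here. The labels gave every group, and 0 columns went unmapped. Pairs of libraries of a group differed by 16.8 to 37.2 times the counting variance, so none was a copy. p-values measure the spread between 3 libraries a group, which the study calls independent experiments.

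From the counts, edgeR 4.0.16 (R 4.3.3; filterByExpr, TMM, quasi-likelihood F test, Benjamini-Hochberg adjustment over all genes tested, threshold 0.05) was fitted to the libraries of each comparison, to 4 groups for each of the 2 interactions, and to all 7 groups. Alternatives were DESeq2 1.42.0, its size factors in edgeR, no filter, a replicate block, a single fit of all 21 libraries, and leaving out each library. Scripts were tested on simulated data. Shares were compared by exact permutation tests (SciPy). Transcript lengths and overlaps came from GENCODE vM21. A count of 3 was the floor of a library, and no member fell to it. The named genes were the 10 members, pathway genes called in the same direction at day 6 after single and repeated 5-FU (at most 14), the 3 genes most like each of the 3 members of widest range, and markers. The members and lists were chosen with earlier results of these data known. The value of 1 pathway gene is not reported here.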

Additional observations from a re-analysis of the deposited data

Results flagged for a closer look

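Single and repeated 5-FU had unequal effects at day 6 on Pdcd4, an inhibitor of the translation initiation factor eIF4A that is degraded downstream of mTORC1. The interaction was 0.95 on the log2 scale, the effect of 5-FU given 3 times minus that of 5-FU given once (SE 0.157, edgeR adjusted p = 0.0237). Of the groups in this test, only those of single administration carry the added ending in their column names. The ending and the number of administrations thus cannot be told apart here. Pdcd4 was at 128.7, 107.4 and 117.9 CPM at day 6 after 5-FU once against 250.4, 237.0 and 282.8 CPM after PBS once, and fell by 1.13 on the log2 scale (edgeR adjusted p = 0.00113). After 5-FU 3 times it was at 267.6, 201.1 and 240.0 CPM against 252.4, 281.9 and 262.5 CPM after PBS 3 times, with overlapping libraries and a log2 difference of -0.19 (95% interval -0.46 to 0.08, edgeR adjusted p = 0.296). The interaction test over all genes called no member at either day. Groups of 3 libraries were not searched for single outlying libraries.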

How the results depend on the processing

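Of 1330 alternative values for the 10 members over 110 member and comparison pairs, 1306 kept their side of the threshold. Another 18 lost a call, 6 gained one and 0 reversed with a call. Among the 1306, 74 values called in neither fit changed sign, 73 of them on leaving out a library, none larger than 0.436 on the log2 scale. At day 6 DESeq2 called 28.9% of all genes after 5-FU once and 26.4% after 5-FU 3 times, and its shares for the other comparisons named here are given above. DESeq2 called 20 pathway genes at day 6 after 5-FU once (13 by edgeR), 2 members after 5-FU 3 times (1 by edgeR), 1 member and 2 pathway genes at day 21 after 5-FU once against PBS, and 2 pathway genes after 5-FU 3 times (0 by edgeR in each). It called 1 member and 1 pathway gene between the PBS groups, 1 member and 6 pathway genes in old HSCs against PBS once, 3 pathway genes against PBS 3 times, 1 member for the day 6 interaction and 6 members over the 7 groups. A single fit of all 21 libraries called 1 member at day 6 after 5-FU once and 0 after 5-FU 3 times. It called 1 pathway gene at day 21 after 5-FU once, 2 at day 21 after 5-FU 3 times, and 2 in old HSCs against each PBS group. Of all 13571 genes that fit called 2706 and 2944 at day 6 after 5-FU once and 3 times. The counts at day 21 were 257 and 185, and in old HSCs 324 against PBS once and 179 against PBS 3 times. Over all genes, same-numbered libraries did not deviate together (correlations from -0.0542 to 0.0437), and the labels name no shared day or litter, so the libraries were treated as unpaired. With the replicate block, 0 members and 6 pathway genes were called at day 6 after 5-FU 3 times (12 without the block), 0 members between day 21 and day 6 after 5-FU once, and 2 members over the 7 groups, where Prkaa2 joined Prkab1 (adjusted p = 0.00332). Over all genes the block gave 1509 calls (2310 without it), 2652 (3272) and 4880 (5106) in these tests, in this order.

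Leaving out single libraries gave 1 to 2 members and 10 to 14 pathway genes at day 6 after 5-FU once, 0 to 0 members and 2 to 5 pathway genes after 5-FU 3 times, and 0 to 1 members at day 21 after 5-FU once against PBS. It gave 0 to 1 members and 16 to 23 pathway genes between day 21 and day 6 after 5-FU once, 9 to 14 pathway genes after 5-FU 3 times, 1 to 2 pathway genes in old HSCs against PBS once, and 1 to 4 members over the 7 groups. The largest of these, 4, came without replicate 1 of 5-FU 3 times day 21. Over all genes these fits called 1563 to 1947 at day 6 after 5-FU once (2827 with all libraries) and 1231 to 1582 after 5-FU 3 times (2310). At day 21 after 5-FU once against PBS they called 1 to 32 (28). Between day 21 and day 6 they called 1736 to 2978 after 5-FU once (3272) and 1351 to 1744 after 5-FU 3 times (2450). For old HSCs against PBS once they called 111 to 150 (242), and over the 7 groups 4370 to 5030 (5106). Where an arm kept 2 libraries, the spread was pooled by edgeR over the groups of the fit. From raw counts not divided by length, the shares after PBS once were 82.1% for Prkaa1, 74.8% for Prkab1 and 10.7% for Prkag1, and from coding length 81.9%, 74.9% and 17.1%. These shares differ by construction, since the lengths differ. The cause of the other changes was not tested. Prkaa2 and Prkab2, at 35 to 625 and 71 to 259 counts a library, are the members whose counting error is largest.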

Other observations

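Prkaa2 was highest in the library numbered 2 in 6 of the 7 groups, the exception being PBS once, where replicates 1 and 2 were at 16.6 and 16.3 CPM. For the other 9 genes a replicate number was highest in at most 4 of the 7 groups. This was noticed after the values were seen. With the replicate number as a block, the edgeR adjusted p of Prkaa2 over the 7 groups was 0.00332, against 0.0540 without it. The labels do not say whether libraries of the same number share a day or litter.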
